A study of Homo sapiens with 6 samples.

Results

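Of 15988 H3K4me3 loci on chromosomes 1 to 22, 513 carried both H3K4me3 and H3K27me3 in Low-Chir cultures and H3K4me3 without H3K27me3 in Boost-Chir cultures. A locus is a run of H3K4me3 peaks of either condition joined across gaps of up to 3 kb. A member had an H3K4me3 peak in both conditions, at least 1 bp of a Low-Chir H3K27me3 peak and 0 bp of a Boost-Chir H3K27me3 peak between the locus ends. These were 3.68% of the 13950 loci with H3K4me3 in both conditions. Another 2555 loci were bivalent in both conditions, 420 had the opposite pattern and 10462 had no H3K27me3 in either. The members were chosen by these called H3K4me3 and H3K27me3 peaks, so their H3K27me3 values below are a description.

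H3K4me3 is laid down by the COMPASS (SET1 and MLL) methyltransferases and marks the starts of active and poised genes. H3K27me3 is made by EZH1 and EZH2 within Polycomb repressive complex 2 and is found at silent developmental genes. Loci with both marks are called bivalent. In pluripotent and progenitor cells many of them are promoters of lineage regulators, and they can later resolve to H3K4me3 alone, as a gene becomes active, or to H3K27me3 alone. Peaks of both marks in a bulk culture can also come from different cells.

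The cells were neural progenitors made from the established human embryonic stem cell line WA-09 (H9) and taken on day 11 of differentiation toward midbrain dopamine neurons. CHIR99021 inhibits the kinase GSK3 and so activates canonical WNT signalling, which patterns the neural tube along its axis. All cultures began in 0.7 µM CHIR99021 with SHH C25II, LDN and SB431542, the last an inhibitor of TGF-beta signalling, and their medium from day 10 held 3 µM CHIR99021. Between day 4 and day 10 the Boost-Chir cultures had 7.5 µM, whereas the labels do not name the Low-Chir concentration in those days. Each mark was measured by chromatin immunoprecipitation and sequencing (ChIP-seq) in 1 library per condition, so no difference below has a replicate check or a test. The lists held 42647 and 45390 H3K4me3 peaks in Low-Chir and Boost-Chir on these chromosomes, and 25370 and 25893 H3K27me3 peaks. By their background reads, the depth of Boost-Chir relative to Low-Chir was 1.21 for H3K4me3 and 0.971 for H3K27me3. Positions are on hg19. No annotation of that build was used, so loci were not assigned to genes and the cell type was not checked against marker genes.

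The H3K27me3 of the 513 loci in Low-Chir was mostly short and near the middle of its list in strength. It covered from 1 to 9830 bp per locus, with a median of 358 bp, against a median of 1125 bp at loci bivalent in both conditions. A single Low-Chir H3K27me3 peak supplied it at 329 loci (64.1%, exact 95% interval 59.8 to 68.3), against 36.9% of loci bivalent in both. The strongest peak of a locus had a median of 19 reads at its summit (range 12 to 39) and stood at the 46.2 percentile of the Low-Chir list by −log10 q. At loci bivalent in both, the strongest Low-Chir peak had a median of 26 reads and stood at the 85.4 percentile. Thus 242 of the 513 had a peak in the stronger 50% of the list, 101 in the top 25% and 18 in the top 10%. These were 47.2%, 19.7% and 3.51% of members, against 84.5%, 65.8% and 39.5% of loci bivalent in both. The H3K27me3 peak overlapped a Low-Chir H3K4me3 peak directly at 423 members (82.5%, 78.9 to 85.6), against 95.1% of loci bivalent in both. The strength of a peak was taken at its summit, which could lie outside the locus. At 125 members (24.4%) Low-Chir H3K27me3 came only from peaks crossing a locus end, against 38.1% of loci bivalent in both.

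**Figure D1:**
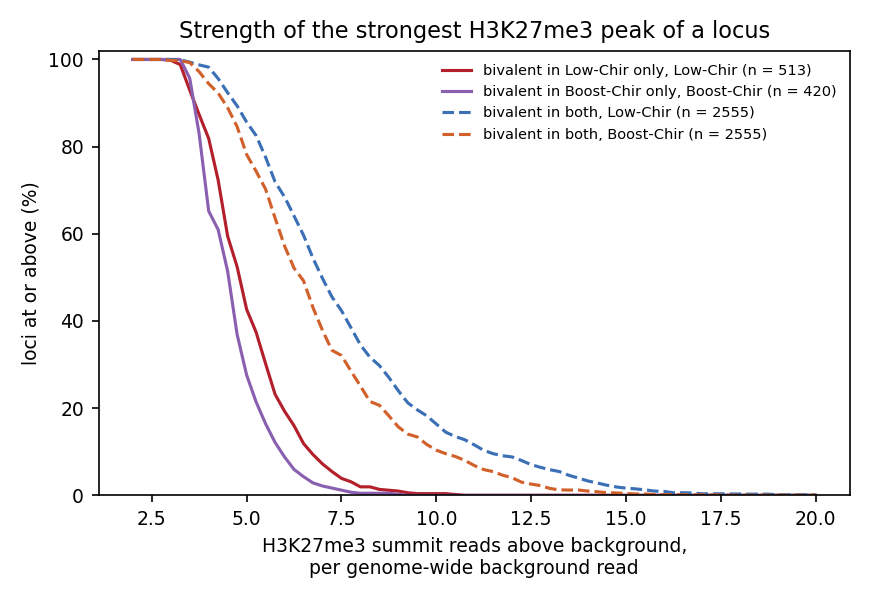
Strength of the strongest H3K27me3 peak per locus, whose summit can lie beyond the locus ends. The horizontal axis gives summit reads above the local background per read of genome-wide background, and the vertical axis the percentage of loci at or above that value. Solid lines are loci with H3K27me3 in 1 condition (513 in Low-Chir only, 420 in Boost-Chir only) and dashed lines the 2555 loci bivalent in both. Both solid lines lie left of both dashed lines over most of their range.

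Several loci lay close to the rule's limits. The locus on chromosome 2 at 46768653 to 46771297 entered with 1 bp of Low-Chir H3K27me3, and 6 of the 513 had under 50 bp. Just outside, the locus on chromosome 8 at 22224008 to 22225950 was bivalent in both, with 200 bp of H3K27me3 in Low-Chir against 5 bp in Boost-Chir, and 26 of the loci bivalent in both had under 50 bp in Boost-Chir. On chromosome 11 at 33395308 to 33400247, a member with 840 bp of Low-Chir H3K27me3, a Boost-Chir peak began directly at the locus end.

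Loci with little H3K27me3 in Low-Chir were more often without it in Boost-Chir. With under 250 bp of Low-Chir H3K27me3, 166 of 353 loci (47.0%, 41.7 to 52.4) had none in Boost-Chir. With 500 to 999 bp it was 129 of 777 (16.6%, 14.1 to 19.4), and with 2000 bp or more it was 30 of 710 (4.23%, 2.87 to 5.98). Over all lengths, 513 of 3068 Low-Chir bivalent loci (16.7%, 15.4 to 18.1) had none in Boost-Chir. In the other direction, 420 of 2975 Boost-Chir bivalent loci (14.1%, 12.9 to 15.4) had none in Low-Chir, and their strongest Boost-Chir peak had a median of 17 reads.

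The absence of a called peak does not mean that no H3K27me3 was there. In a bulk culture the mark in fewer cells and less of the mark per cell cannot be told apart. The weakest H3K27me3 peaks called in Boost-Chir had 11 reads at the summit, and the median was 18. Brought to the Boost-Chir depth, the strongest Low-Chir peak reached that median at 257 of the 513 loci. At loci bivalent in both, the depth-corrected H3K27me3 summit was at the median 0.913 times as high in Boost-Chir as in Low-Chir (95% interval 0.905 to 0.920). Summits in the Boost-Chir library were thus also lower where peaks persisted. With 1 library per condition, a difference between libraries and less of the mark cannot be told apart. With the factor of 0.913 applied as well, 428 members (83.4%) would reach the 5th percentile of Boost-Chir summits and 180 (35.1%) the median. The part of this general difference in the loss of calls was not tested.

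The surroundings of the members differed from locus to locus. The nearest Boost-Chir H3K27me3 peak lay within 5 kb of the locus ends at 178 loci (34.7%, 30.6 to 39.0), beside 25.5% of the 13950 loci with H3K4me3 in both conditions. It lay within 1 kb at 137 members (26.7%, 22.9 to 30.8), against 23.6%, and more than 100 kb away at 183 (35.7%, 31.5 to 40.0), against 46.9%. These background shares include loci that hold Boost-Chir H3K27me3 themselves, which the rule keeps out of the members, so closeness to them cannot be read. The 10462 loci without H3K27me3 in either condition hold none in Boost-Chir, like the members. Among them it lay within 1 kb at 1.70%, within 5 kb at 3.83% and beyond 100 kb at 60.8%. Members thus lay near Boost-Chir H3K27me3 more often than these loci, which also lack the mark in Low-Chir. Within 10 kb on either side of the locus, 212 members (41.3%) had no H3K27me3 in Low-Chir and 314 (61.2%) had none in Boost-Chir, against 75.7% and 76.1% of the 13950. Those flanks held less H3K27me3 in Boost-Chir at 252 members (49.1%, 44.7 to 53.5) and more at 72 (14.0%, 11.1 to 17.3). The background was 16% and 11.4%. At loci bivalent in both, 55.5% had less and 38.0% more. These shares with less are not directly comparable. No Low-Chir H3K27me3 lay in the flanks of 41.3% of members, against 10.0% of loci bivalent in both, so fewer members could have less. More flanking H3K27me3 in Boost-Chir was found at 14.0% of members and 38.0% of loci bivalent in both. These shares with more are not directly comparable either. No Boost-Chir H3K27me3 lay in the flanks of 61.2% of members, against 11.8% of loci bivalent in both, so fewer members could have more. At loci with the opposite pattern, 45.0% had more flanking H3K27me3 in Boost-Chir and 14.8% less. Flanks of members are not fully separate from the rule. At 125 members Low-Chir H3K27me3 came only from peaks crossing a locus end, so part of those peaks lies in the flanks. Near the strongest Low-Chir H3K4me3 summit, 18.4% of positions within 1 kb were under H3K27me3 in Low-Chir and 2.22% in Boost-Chir. By its construction, the rule keeps the Boost-Chir value near 0 at the centre. From 1 to 5 kb away it was 9.35% (Low-Chir) and 3.06% (Boost-Chir). Members had a median locus length of 3399 bp, so the rule also covers part of this range. The lower Boost-Chir value there is thus partly set by the rule. At loci bivalent in both, the values within 1 kb were 48.9% and 44.9%.

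**Figure D2:**
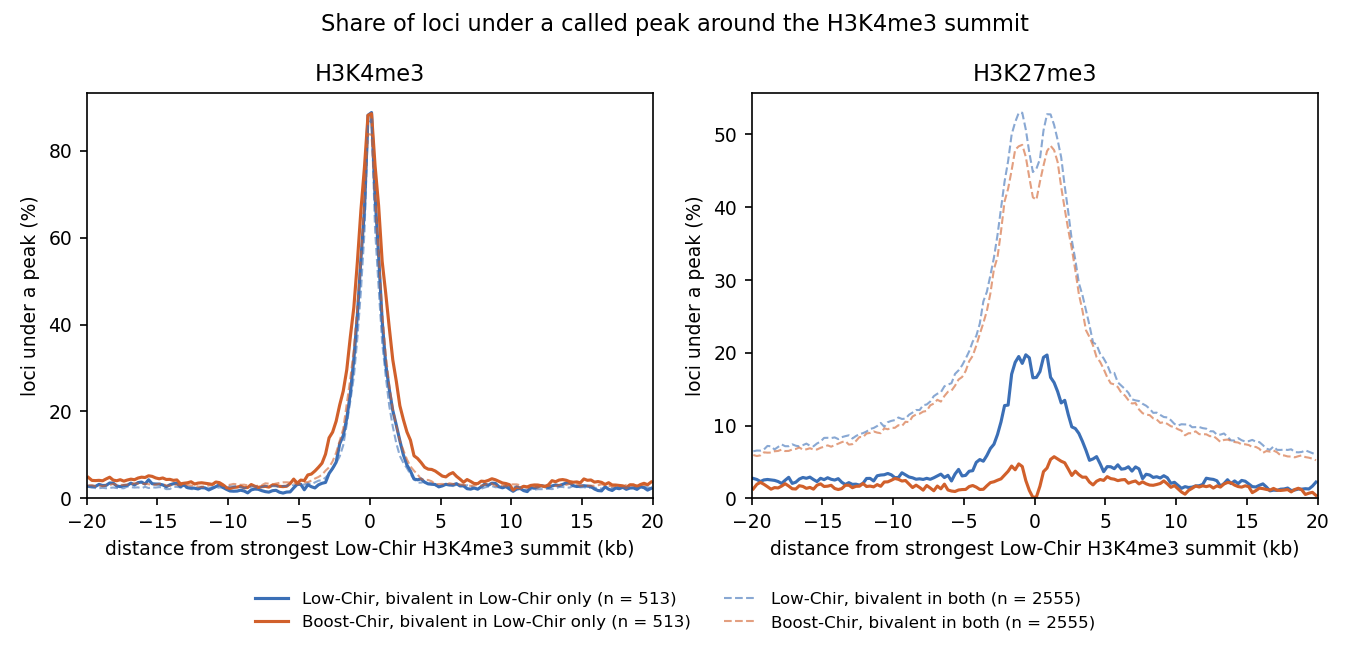
Percentage of loci under a called peak in bins of 250 bp, by distance in kb from the strongest Low-Chir H3K4me3 summit, for H3K4me3 (left) and H3K27me3 (right). Solid lines are the 513 loci bivalent in Low-Chir only and dashed lines the 2555 bivalent in both, with Low-Chir in blue and Boost-Chir in orange. In Low-Chir the H3K27me3 of the 513 loci peaks at 19.7% beside the summit and is lower at its centre, while the Boost-Chir line reaches 5.72%.

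H3K4me3 of the 513 loci was longer in Boost-Chir, by about as much as at all loci. The covered length ranged from 200 to 15348 bp in Low-Chir, with a median of 1746 bp, and from 200 to 21104 bp in Boost-Chir, with a median of 2395 bp. The length was greater in Boost-Chir at 405 members (78.9%, 75.2 to 82.4), beside 81.9% of the 13950 loci with H3K4me3 in both. The median ratio of Boost-Chir to Low-Chir was 1.28 (95% interval 1.24 to 1.33), the same as the 1.28 of all loci. It was 1.304 at loci without H3K27me3, 1.15 (1.13 to 1.16) at loci bivalent in both and 1.12 at loci with the opposite pattern. A length at least 1.5 times as great in Boost-Chir was found at 155 members (30.2%, 26.3 to 34.4), near the background of 26.9%. A length at least 1.5 times as great in Low-Chir was found at 30 (5.85%), against 4.01%. The deeper Boost-Chir library moves with these lengths, and its part in them was not tested.

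H3K4me3 was at least 3 times as long in Boost-Chir at 26 members (5.07%, 3.34 to 7.34), against a background of 1.96% and 84 of the 2555 loci bivalent in both (3.29%, 2.63 to 4.05). By Low-Chir length, the members did not keep to one side of the other classes. Under 500 bp, the median ratio was 1.74 (1.42 to 2.18) at 53 members, 1.59 at loci without H3K27me3 and 1.73 at loci bivalent in both. From 1000 to under 2000 bp it was 1.25 (1.17 to 1.36) at 162 members, 1.41 and 1.13 (1.09 to 1.17). Among loci of 2000 to under 4000 bp in Low-Chir, the median ratio was 1.28 (1.24 to 1.36) at 167 members, 1.31 at loci without H3K27me3 and 1.09 (1.06 to 1.12) at loci bivalent in both. At 4000 bp or more it was 1.29 (1.14 to 1.39) at 53 members, 1.22 and 1.08. Between 500 and 999 bp the members had 1.13 (0.890 to 1.29), whose interval includes the 1.23 of loci bivalent in both. The members' median was nearer to that of loci free of H3K27me3 from 2000 bp on, and nearer to that of loci bivalent in both in the 3 shorter classes.

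**Figure D3:**
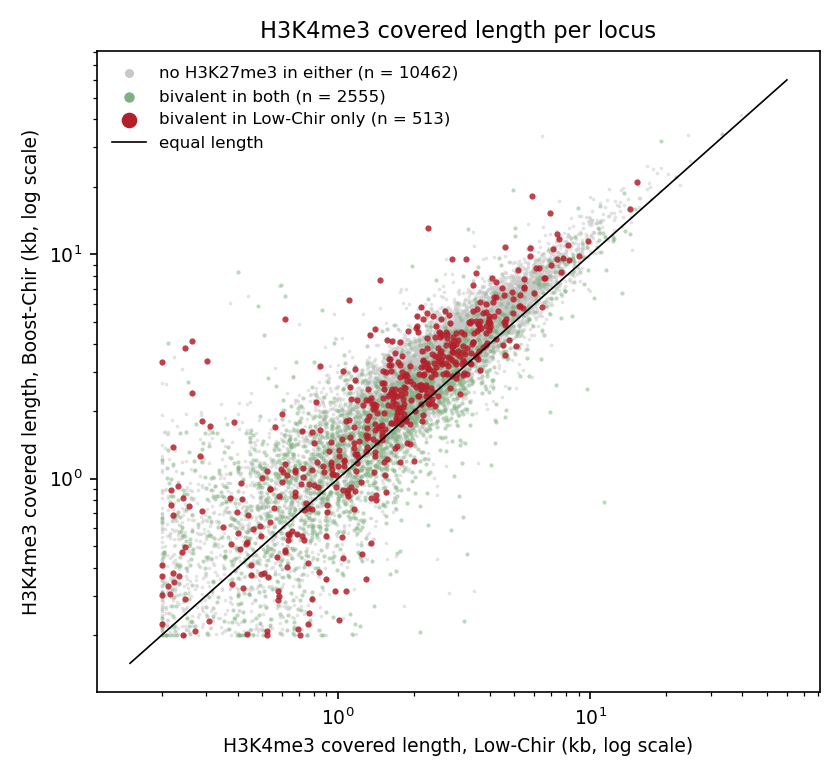
H3K4me3 covered length per locus in kb, Low-Chir on the horizontal and Boost-Chir on the vertical axis, both on log scales. Each point is a locus: red for the 513 bivalent in Low-Chir only, green for the 2555 bivalent in both and grey for the 10462 without H3K27me3, with a line of equal length. Most red points lie just above the line, among the grey ones, and 26 lie at 3 times the Low-Chir length or more.

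The height of H3K4me3 was compared through the reads at the strongest summit of each locus, less the local background and divided by the genome-wide background as a measure of depth. Members had a median of 25 reads in Low-Chir (range 10 to 55) and 36 in Boost-Chir (11 to 75). After the correction for depth the ratio of Boost-Chir to Low-Chir was 1.13 at the median (1.10 to 1.17), against 1.09 at all loci, 1.01 at loci bivalent in both and 0.973 at loci with the opposite pattern. It was above 1 at 352 members (68.6%), beside 66.1% of all loci. At 59 members (11.5%, 8.87 to 14.6) the summit was at least 1.5 times as high in Boost-Chir, against 5.02% of all loci. At 16 (3.12%) it was at least 1.5 times as high in Low-Chir, against 2.97%.

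Within the 513, loci with 1 kb or more of Low-Chir H3K27me3, a limit set after seeing the data, had a higher median ratio of H3K4me3 length. At the 62 loci with 1 kb or more, the median H3K4me3 length was 2264.5 bp (Low-Chir) and 4925.5 bp (Boost-Chir). Of the 62, 61 (98.4%) were longer in Boost-Chir, against 81.9% of the 13950 loci with H3K4me3 in both conditions. Their median ratio was 1.69 (1.48 to 2.22), against 1.25 at the 451 with under 1 kb. Of the 62, 39 (62.9%, 49.7 to 74.8) were at least 1.5 times as long in Boost-Chir and 0 (upper limit 5.78%) at least 1.5 times as long in Low-Chir. The background was 26.9% and 4.01%. Their summits were also higher, with a median ratio of 1.32 per depth and 23 loci (37.1%) at 1.5 or more, against 5.02% of all loci. With 2000 bp or more, the length ratio was 2.24 (1.69 to 2.58) over 30 loci, and all 30 were longer in Boost-Chir. At the 680 loci with this much Low-Chir H3K27me3 that were bivalent in both, it was 1.14 (1.10 to 1.17), and 430 were longer. Among members with 1 to 249, 250 to 499 and 500 to 999 bp the ratio was 1.25 in each class.

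The locus ends include the Boost-Chir H3K4me3 peaks, so the 2 measures are not independent. H3K27me3 was also counted only between the first and last Low-Chir H3K4me3 peak. Over the 513, its Spearman correlation with the H3K4me3 length ratio was −0.116 in that extent, against 0.160 over the whole locus. More H3K27me3 thus did not go steadily with a greater ratio. At loci bivalent in both, the correlation in that extent was −0.273. The 43 members with 1 kb or more in that extent had a median ratio of 1.55 (1.35 to 1.93), and 42 were longer in Boost-Chir. The 1059 loci bivalent in both with as much had 1.04 (1.02 to 1.06), and 591 were longer. Over all 13950 loci, 81.9% were longer. The 75 members with 0 bp in that extent had 1.55 (1.46 to 1.69), but so had similar loci bivalent in both, at 1.71 (1.53 to 1.94). From 1 to 999 bp the members had 1.18 to 1.25 per class and the loci bivalent in both 1.14 to 1.28. In this count the medians of both kinds of loci were thus close from 1 to 999 bp. At 1 kb or more the members had the higher median, and at 0 bp the loci bivalent in both. The members' median was 1.55 both at 0 bp and at 1 kb or more.

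**Figure D4:**
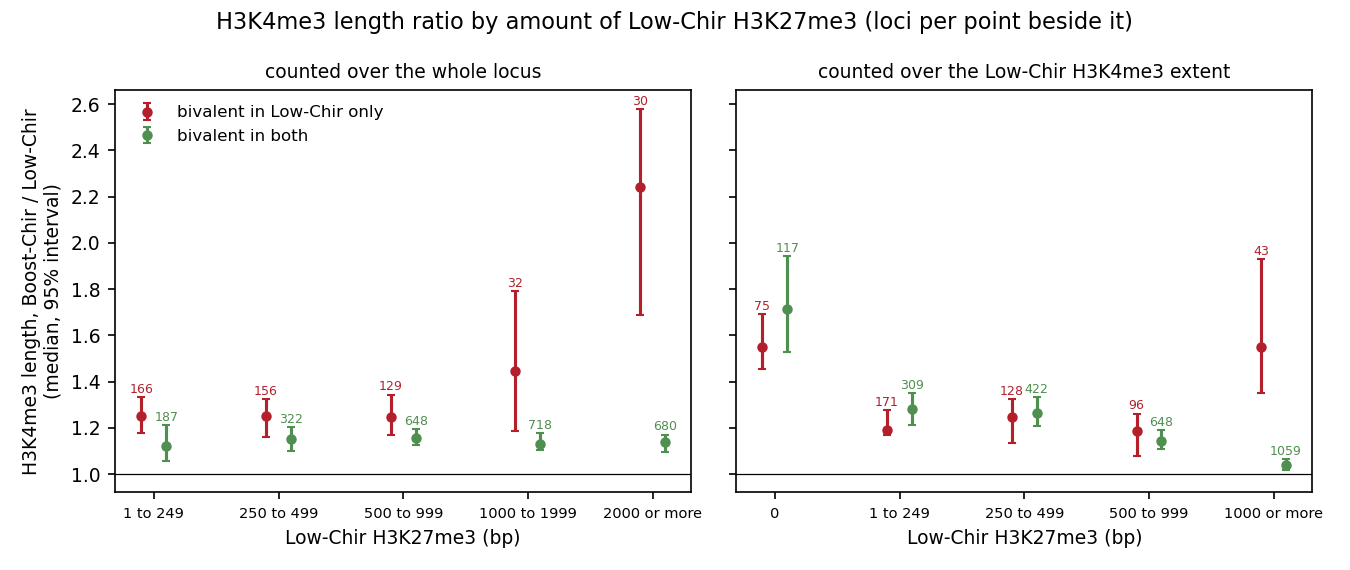
Median ratio of H3K4me3 length (Boost-Chir over Low-Chir) by bp of Low-Chir H3K27me3, counted over the whole locus (left) or between the outer Low-Chir H3K4me3 peaks (right). Points are medians, bars their 95% order-statistic intervals and small numerals the loci per point, red for loci bivalent in Low-Chir only and green for loci bivalent in both. The red point at 1 kb or more on the right stands at 1.55 and the green one at 1.04. At 0 bp on the right they stand at 1.55 and 1.71.

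Loci with the opposite pattern went the other way only where they had 1 kb or more of Boost-Chir H3K27me3. At these 38 loci, the median H3K4me3 ratio was 0.823 (0.685 to 0.906), and 9 were longer in Boost-Chir. At the 382 with under 1 kb it was 1.15 (1.10 to 1.19), and 250 were longer. Counted only between the outer Boost-Chir H3K4me3 peaks, 26 loci with 1 kb or more remained. Their ratio was 0.857 (0.695 to 1.08), whose interval includes equal length. Both sets of loci were read from the same 4 libraries.

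The 10 members with the most Low-Chir H3K27me3 were all longer in H3K4me3 in Boost-Chir, by between 1.19 and 8.34 times. The same direction was found at 81.9% of all 13950 loci. The first lay on chromosome 2 at 171561391 to 171582575, with 9.83 kb of H3K27me3 under 12 Low-Chir peaks. H3K4me3 there covered 5.84 kb in Low-Chir against 18.1 kb in Boost-Chir, and its strongest summit went from 24 to 75 reads, 2.86 times as high per depth. No H3K27me3 was called in its 10 kb flanks in either condition. The second, on chromosome 12 at 130642355 to 130653137, had 8.22 kb of H3K27me3 and held the highest −log10 q of all members, 16.3. Its H3K4me3 measured 5.77 kb (Low-Chir) and 10.6 kb (Boost-Chir). A Boost-Chir H3K27me3 peak remained 1.48 kb from its end, and its flanks held 3.37 kb of the mark (Low-Chir) and 0.323 kb (Boost-Chir). These 2 loci had more than 8 kb of H3K27me3 each, and the next in order had 4.57 kb.

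Some of the 10 had little H3K4me3 in Low-Chir. On chromosome 16 at 77462696 to 77469520, H3K4me3 measured 0.619 kb (Low-Chir) and 5.16 kb (Boost-Chir), with 16 and 35 reads at the summit, and H3K27me3 had covered 3.94 kb. On chromosome 5 at 141699315 to 141706498, it was 1.11 kb and 6.23 kb, with 20 and 52 reads, beside 3.92 kb of Low-Chir H3K27me3. In both the summit was at least 2 times as high per depth in Boost-Chir, at 2.03 and 2.29. On chromosome 16 at 87898480 to 87903249, H3K4me3 went from 1.17 to 3.07 kb, and 4.58 kb of Low-Chir H3K27me3 in the flanks had no Boost-Chir counterpart. On chromosome 6 at 7726256 to 7732612 it went from 2.17 to 5.13 kb, but here 1.65 kb of flanking H3K27me3 remained in Boost-Chir and the nearest peak was 0.606 kb away.

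Others were broadly marked by H3K4me3 already. The locus on chromosome 6 at 99270613 to 99293751 was the longest of the 513, at 23139 bp, with H3K4me3 over 15.3 kb (Low-Chir) and 21.1 kb (Boost-Chir). Its 4.57 kb of H3K27me3 lay in 9 peaks, and the nearest Boost-Chir H3K27me3 was 735 kb away. On chromosome 1 at 202773720 to 202782495, the H3K4me3 lengths were 6.60 and 7.84 kb, with 46 and 56 reads, a ratio of 1.01 per depth. That locus thus had 3.48 kb of Low-Chir H3K27me3 and almost the same H3K4me3 height in both conditions. On chromosome 3 at 57185167 to 57199622 the height was also alike, at 1.04 per depth, although the covered length was 1.47 kb and 7.70 kb.

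**Figure D5:**
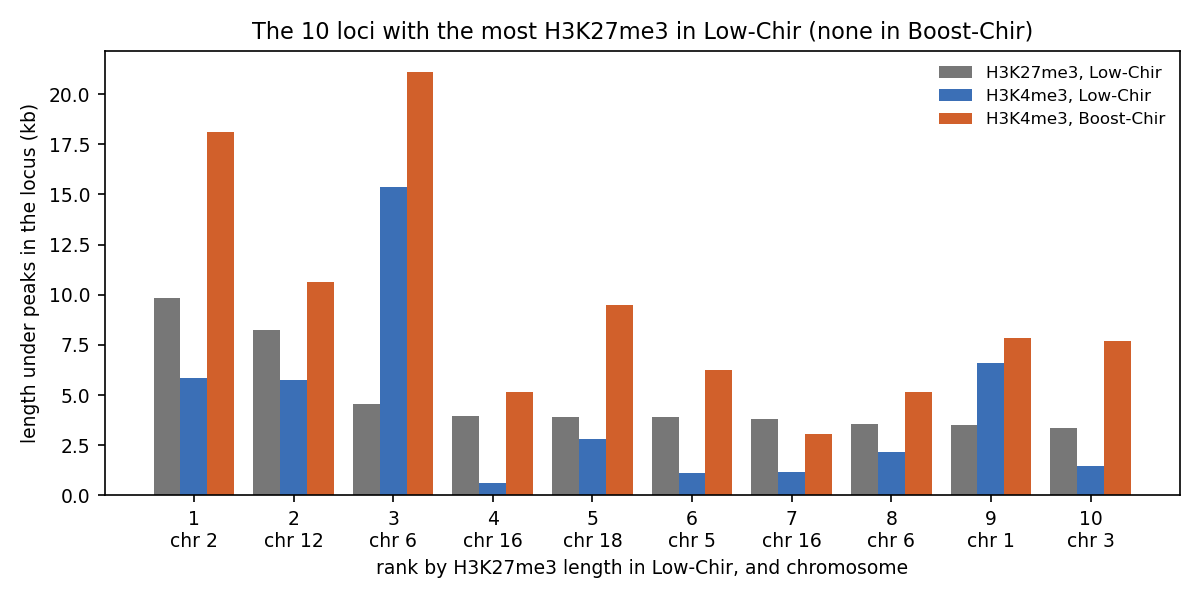
Length under peaks in kb at the 10 loci with the most Low-Chir H3K27me3, in that order, with their chromosomes. Grey bars are H3K27me3 in Low-Chir, blue bars H3K4me3 in Low-Chir and orange bars H3K4me3 in Boost-Chir, each from 1 library, and Boost-Chir H3K27me3 is 0 at all 10. The orange bar is taller than the blue one at each locus.

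The 5 greatest gains in H3K4me3 length included the first locus on chromosome 2 and another of the 10, on chromosome 18 at 30341445 to 30353955. The latter went from 2.83 to 9.51 kb, with 3.93 kb of Low-Chir H3K27me3. On chromosome 10 at 54066710 to 54080504, H3K4me3 summit reads went from 28 to 68, 2.12 times per depth, as its length went from 2.27 to 13.1 kb. H3K27me3 had covered 2.33 kb there in 6 peaks, and the nearest Boost-Chir peak was 1313 kb away. On chromosome 4 at 109078185 to 109095365, H3K4me3 covered 6.92 and 15.3 kb and Low-Chir H3K27me3 2.92 kb. On chromosome 3 at 5017977 to 5029091, H3K4me3 covered 3.20 and 9.55 kb and Low-Chir H3K27me3 2.02 kb. All 5 gained in height as well, by 1.36 to 2.86 times per depth.

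The strongest H3K27me3 peaks by −log10 q were of 2 kinds. At 6 of the first 10 loci they lay in loci of at least 6.8 kb, such as chromosome 7 at 45611670 to 45618704. H3K4me3 there measured 2.06 kb (Low-Chir) and 5.31 kb (Boost-Chir), with 24 and 50 reads, and 3.26 kb of Low-Chir H3K27me3 had no Boost-Chir peak within 308 kb. The other 4 had at most 0.368 kb of H3K4me3 in either condition, and their 1 Low-Chir H3K27me3 peak ran beyond the locus. On chromosome 20 at 62670109 to 62670440, all 332 bp of the locus lay within a Low-Chir H3K27me3 peak of 4515 bp, and a Boost-Chir peak lay 99 bp away. Its flanks held 11245 bp (Low-Chir) and 9456 bp (Boost-Chir) of H3K27me3. On chromosome 10 at 43762454 to 43762789, chromosome 22 at 24819899 to 24820266 and chromosome 8 at 144650777 to 144652093, Boost-Chir H3K27me3 was likewise 111, 566 and 44 bp away. At these 4 loci H3K27me3 was thus still called beside the locus, with 1219 to 9456 bp in the flanks.

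Members near to and far from Boost-Chir H3K27me3 also differed in H3K4me3. The 178 members with Boost-Chir H3K27me3 within 5 kb were shorter, with median H3K4me3 lengths of 1155 bp (Low-Chir) and 1254 bp (Boost-Chir), and a median ratio of 1.18. The 335 without had 2089 and 3072 bp and a ratio of 1.33. The Boost-Chir length was the greater at 121 of the 178 (68.0%, 60.6 to 74.8) and at 284 of the 335 (84.8%, 80.5 to 88.5). The height ratio per depth was 1.07 and 1.17. Of the 335, 154 also had a Low-Chir peak in the stronger 50% of its list. Their length ratio was 1.42 (1.35 to 1.48) and 138 (89.6%) were longer in Boost-Chir. As background, 81.9% of the 13950 loci with H3K4me3 in both conditions were longer in Boost-Chir. The share was 87.2% at loci without H3K27me3 and 64.4% at loci bivalent in both. The interval of the 335 includes 81.9% and 87.2%, and that of the 178 includes 64.4%. The median length ratios of these backgrounds were 1.28, 1.304 and 1.15.

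The greatest reductions in H3K4me3 length reached 1171 bp, against 12283 bp for the greatest gain. The locus on chromosome 5 at 83677055 to 83684069 had 5068 bp (Low-Chir) and 3897 bp (Boost-Chir), with 36 and 40 reads at the summit, so its height per depth was 0.992 of that in Low-Chir. On chromosome 17 at 72977664 to 72986402 it was 4574 and 3552 bp, and on chromosome 1 at 27676022 to 27678371 it was 1288 and 355 bp. Chromosome 12 at 111125437 to 111127526 had 1355 and 515 bp, and chromosome 7 at 116311727 to 116314019 had 1997 and 1193 bp. Low-Chir H3K27me3 at these 5 covered 200 to 857 bp in 1 or 2 peaks.

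Among members with a Low-Chir H3K27me3 peak in the stronger 50%, the most remote from any Boost-Chir H3K27me3 was that same locus on chromosome 5, at 2987 kb. Chromosome 16 at 12992235 to 13000402 followed at 2714 kb, with 369 bp of Low-Chir H3K27me3 and 4480 and 7056 bp of H3K4me3. Next came the locus on chromosome 3 at 5017977 to 5029091, at 1870 kb. Chromosome 6 at 21663481 to 21671851 (642 bp of H3K27me3) and chromosome 5 at 167000093 to 167005429 (207 bp) followed. At the last, H3K4me3 summit reads were 26 in Low-Chir and 51 in Boost-Chir, 1.75 times per depth, while the length went from 1593 to 3210 bp. Of these 5, only the locus on chromosome 3 had over 1 kb of Low-Chir H3K27me3.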

How the data were processed

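ChIP-seq peak lists of H3K4me3 and H3K27me3, 1 library per mark and condition, were used. The submitters' processing notes name cutadapt 1.6, BWA 0.7.12, Picard and hg19. The peak names show that each antibody library was called against the input of its condition. For the peak caller, a name and threshold were not given in the sources used here. The 2 input samples were not analysed here. The deposited lists give each peak's fold (a ratio over local background), −log10 p and −log10 q, summit and a score. The deposited score was not used.

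Python 3.11.15, numpy 2.4.6, scipy 1.17.1 and matplotlib 3.10.9 were used. Reads at a summit were solved from fold, taken as (reads + 1) over (background + 1), with p as a Poisson tail. The deposited −log10 p was returned within 0.001 for 100% of peaks. The lowest background of a list served as its depth. The code was checked on the Low-Chir lists used as both conditions, with every H3K27me3 peak of chosen loci removed from the Boost-Chir or Low-Chir copy. It returned 200 of 200 planted losses and 200 of 200 planted gains of H3K27me3. Loci that shared a peak with a neighbour were left out beforehand. The check covers the code and does not measure how well a loss is found in noisy data. Shares carry exact (Clopper-Pearson) 95% intervals and medians order-statistic intervals. Both treat loci as independent and cover counting error only.

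Named loci are the first 10 by Low-Chir H3K27me3 length, the first 10 by its −log10 q, the 5 greatest gains and 5 greatest falls in H3K4me3 length, and, among members with a Low-Chir peak in the stronger 50% of its list, the 5 farthest from Boost-Chir H3K27me3. Members and lists were chosen with earlier results of these data known. Loci nearest the rule's limits are named besides. Limits of 1 kb on H3K27me3, the length classes, the 1.5 and 3 times limits and the read comparison were set after seeing the data. Gene lists, cell type markers and sequence features were not used here, since no genome or annotation of hg19 was at hand.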

Additional observations from a re-analysis of the deposited data

How the results depend on the processing

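No paired analysis was possible because there was 1 library of a mark per condition. The number of loci bivalent in Low-Chir only moved with the strength asked of H3K27me3. From 513 it went to 242 with a Low-Chir peak in the stronger 50% of its list, 335 with no Boost-Chir peak within 5 kb, 154 with both and 191 with at least 500 bp. The opposite pattern, 420 by the same rule, went to 173, 313, 123 and 112, so it stayed the smaller number under each of these. It was also smaller with peaks joined within 1 kb (529 and 426) or 5 kb (505 and 414), with direct overlap of the marks (423 and 376), the stronger 50% of H3K4me3 peaks (421 and 328) and equal numbers of H3K27me3 peaks (528 and 412). The median H3K4me3 ratio was 1.26 to 1.28 with other joining distances, the stronger 50% of peaks or equal numbers of peaks, and 1.42 at the 154 loci. The share with Boost-Chir H3K27me3 near was 34.7% at 5 kb, 38.8% at 10 kb and 26.7% at 1 kb. Counting H3K27me3 over the Low-Chir H3K4me3 extent, an alternative chosen after seeing the data, gave 1.55 in place of 1.69.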

Other observations

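Members lay on all 22 chromosomes considered, with from 5 on chromosome 13 to 51 on chromosome 1. As a share of loci with H3K4me3 in both conditions they ranged from 6 of 462 on chromosome 14 (exact 95% interval 0.478 to 2.81%) to 9 of 139 on chromosome 21 (6.47%, 3.00 to 11.9). Chromosome 12 had 37 of 726 (5.10%, 3.61 to 6.96). Of the 513 members, 56 had another member within 100 kb. The same count was not made for other loci, so it does not show whether members were sparse or clustered. The closest pair was on chromosome 19, where loci at 41076165 to 41077145 and at 41080974 to 41084550 were 3828 bp apart. A pair on chromosome 12, at 52426360 to 52435120 and 52443190 to 52446905, was 8069 bp apart.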
